A study of Mus musculus with 24 samples.

Results

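Macrophage marker transcripts were followed in cultures of mouse pancreatic stellate cells (PSC), the fibroblast-like cells of the pancreas that become active in injury and cancer. The list holds 35 genes of the 53801 in the deposited expression table, and all 35 were found there by Ensembl identifier. The members were selected on measured values of these libraries: markers of macrophages had been seen to vary together from library to library. Their covariation is therefore how the list was made and is given as description. Because they vary together, the number of members called in a comparison counts genes that move as a block and not independent events.

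PSC from 4 to 10 pooled pancreata of wild-type C57BL/6J mice aged 7 to 10 weeks were enriched on a Nycodenz gradient and used in the first to second passage. They were grown on a membrane insert with pores of 1 µm, either alone (control) or facing KPC cells, a pancreatic cancer line derived from a mouse model that carries p48-Cre. In the standard model KPC cells lay on the floor of the well, and in the inverse model they adhered to the underside of the same membrane as the PSC and were in place before the PSC were seeded, so the cells shared the well for longer. Polyadenylated RNA of the PSC side was sequenced at 24 h and 72 h, which gives 8 groups of 3 libraries: control and co-culture, at each time, in each model. Every group was wild type in its PSC, and the KPC cells are a single line. Libraries were built from 450 ng of RNA in the standard model and 120 ng in the inverse model. Per the study's methods, standard PSC were seeded in a low-glucose medium, and the experimental medium replaced it when time counting began. Inverse PSC were in the experimental medium from seeding, and in both models this held for controls too. The model, the RNA input and the seeding medium therefore cannot be told apart. The study's methods call the 3 libraries of a group biological replicates. The labels do not say which isolation of pooled pancreata each library came from, so p-values measure the spread between these libraries, whatever part of it lies between isolations.

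Macrophages are phagocytes of the innate immune system that depend on the growth factor CSF1, on its receptor encoded by Csf1r and on the transcription factor PU.1 encoded by Spi1. They engulf particles through scavenger, Fc and complement receptors, degrade them in lysosomes and secrete lysozyme and the C1q complement proteins. The pancreas holds resident macrophages, some of them close to stellate cells, and macrophages are among the most abundant leukocytes of pancreatic cancer.

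The libraries held 15932737 to 24798761 counted fragments (median 18860269) and 12277 to 13307 genes above 1 FPKM, that is, fragments counted for a gene, scaled to transcript length and to library depth. The 4 libraries numbered replicate 2 in the standard model stood apart: over the 35 members their summed FPKM was 723 to 2180, against 41.9 to 413 in the other 20 libraries. Collagen and contractile genes of stellate cells were high in the mean of the 24 libraries (Col1a1 7974 FPKM, Acta2 1699, Vim 1094), while the retinoid-storage gene Lrat (0.003) and Gfap (0.0552) were practically absent.

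Lists of other cell types gave little signal. The summed FPKM of 9 T and NK cell genes reached at most 1.08 in any library, of 5 B and plasma cell genes 0.769, of 6 mast cell genes 0.804, of 9 granulocyte genes 3.17, of 7 dendritic cell genes 5.74 and of 6 endothelial genes 2.44. Ms4a1, Ncr1, Cd209a, Tpsb2 and S100a9 were at 0 in all 24 libraries. Other genes of these lists were detected: the dendritic cell gene Zbtb46 averaged 3.39 FPKM and was above 1 in all 24 libraries, and the granulocyte genes S100a8 (at most 2.72) and Camp (at most 1.88) were above 1 in 4 and 6. Of 6 acinar genes only Cela1 (mean 11.6) was above 1 FPKM in any library. The 6 epithelial genes, keratins among them, summed to 0 to 0.338 FPKM in inverse 72 h controls and 1.5 to 7.78 in inverse 72 h co-culture, and reached 43 in replicate 2 of inverse 24 h co-culture.

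Most of the macrophage signal came from a handful of secreted and lysosomal products. Lyz2, the lysozyme of myeloid cells, averaged 145 FPKM over the 24 libraries (69.7 over the 20 without standard replicate 2) and made up 36.8 to 47.6% of the members' summed FPKM in every library. Next came the lysosomal membrane protein gene Laptm5 (18.8), C1qb (18.7), the leukocyte actin bundler Lcp1 (18), C1qa (17.6), C1qc (16.2), the Fc receptor signalling chain Fcer1g (11.2) and the actin regulator Coro1a (10.6). Without standard replicate 2 the same 8 genes were highest, at 9.1 for Laptm5, 8.56 for Lcp1, 7.73 for C1qb, 6.33 for C1qa, 6.08 for C1qc, 5.34 for Coro1a and 4.73 for Fcer1g, so that Lcp1 then stood above C1qb and Coro1a above Fcer1g. At the other end of the 24-library means, the haemoglobin scavenger receptor Cd163 averaged 0.0448 FPKM and exceeded 1 FPKM in no library. The costimulatory gene Cd86 (0.251), the fractalkine receptor gene Cx3cr1 (0.376), the high-affinity IgG receptor gene Fcgr1 (0.464), Aif1 (0.479) and the lipid receptor gene Trem2 (0.562) were also low. In total 32 members passed 1 FPKM in at least 3 of the 24 libraries, and Cd163, Cx3cr1 and Trem2 did not. Over the 20 libraries without standard replicate 2, Cd163 averaged 0.0294 FPKM, Cd86 0.0918, Trem2 0.137, Aif1 0.178, Cx3cr1 0.187 and Fcgr1 0.204, and 25 members passed 1 FPKM in at least 3. The 7 that passed with standard replicate 2 and not without it were Fcgr1, Fcgr2b, Itgam, Aif1, Cd86, Mrc1 and Ms4a7.

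The 3 genes of the C1q complex lie side by side on chromosome 4 (GRCm38.p6, reverse strand): C1qb at chr4:136880129-136886187, C1qc at chr4:136889804-136893065 and C1qa at chr4:136895917-136898803. Their levels tracked each other across the whole range of the data. The ratio of C1qb to C1qa FPKM was 0.823 to 2.16 (median 1.15) and that of C1qc to C1qa 0.7 to 1.59 (median 0.927) over the 24 libraries, while C1qa itself went from 1.49 to 137 FPKM. Without standard replicate 2 the ranges of both ratios were the same and the medians 1.19 and 0.932, with C1qa at 1.49 to 20.4 FPKM. Lyz2 lies on chromosome 10, at chr10:117277331-117282321 on the reverse strand. Its paralogue Lyz1 was at 0 to 3.58 FPKM, and reads that match both genes are uncertain. The Fc receptor genes Fcgr2b and Fcgr3 are alike in sequence too, and 68.7% of the exons of Itgam overlap the model Gm49368, so these values carry the same limit. Of the exons of Csf1r, 15.1% overlap Hmgxb3, and of those of Cd52, 14.5% overlap Crybg2, each on the opposite strand. The study's methods give the counting tool, featureCounts, with default parameters. How reads in those stretches were assigned was not checked, so these values are uncertain too. For 4 more members the overlap with another gene was 0.9 to 3.3%.

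Promoter sequence was examined for 25 of the 35 members, those with an entry in the RefSeq promoter table (GRCm38.p6). The string AGGAAGT, the purine-rich core that PU.1 and other ETS factors recognise, was searched on both strands over 250 bases before and 50 after each start site. It was present for 8 of the 25 members (32%), namely C1qb, C1qc, Cd53, Ctss, Fcgr1, Lyz2, Mrc1 and Ptprc, and for 10.7% of all 27025 genes in the table. Windows of Lyz2, of both C1q genes with the string and of Mrc1 are shown because these genes carry the results below, each cut where the annotated gene begins, with the string in capitals as it reads on the gene's strand.
Lyz2: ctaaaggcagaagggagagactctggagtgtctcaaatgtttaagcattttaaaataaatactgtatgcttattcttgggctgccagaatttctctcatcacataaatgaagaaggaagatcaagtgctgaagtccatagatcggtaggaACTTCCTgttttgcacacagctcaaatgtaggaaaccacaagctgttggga
C1qb: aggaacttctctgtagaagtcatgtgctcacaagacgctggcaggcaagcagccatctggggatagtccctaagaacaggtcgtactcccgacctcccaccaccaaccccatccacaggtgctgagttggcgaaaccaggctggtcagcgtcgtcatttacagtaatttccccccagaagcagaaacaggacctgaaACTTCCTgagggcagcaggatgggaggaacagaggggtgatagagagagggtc
C1qc: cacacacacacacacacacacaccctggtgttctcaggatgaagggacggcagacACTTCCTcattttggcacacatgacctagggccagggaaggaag
Mrc1: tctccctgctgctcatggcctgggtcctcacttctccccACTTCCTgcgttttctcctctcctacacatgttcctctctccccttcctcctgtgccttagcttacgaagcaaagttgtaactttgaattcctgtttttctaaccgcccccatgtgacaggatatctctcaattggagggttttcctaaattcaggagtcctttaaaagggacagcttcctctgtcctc
These are chr10:117282322-117282522, chr4:136886201-136886450 and chr4:136893066-136893164 on the reverse strand and chr2:14229164-14229391 on the forward strand. The string begins 100 bases before the RefSeq start of Lyz2, 53 before that of C1qb, 195 before that of C1qc and 211 before that of Mrc1. A match describes letters in a window and is neither a site nor a cause.

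**Figure D1:**
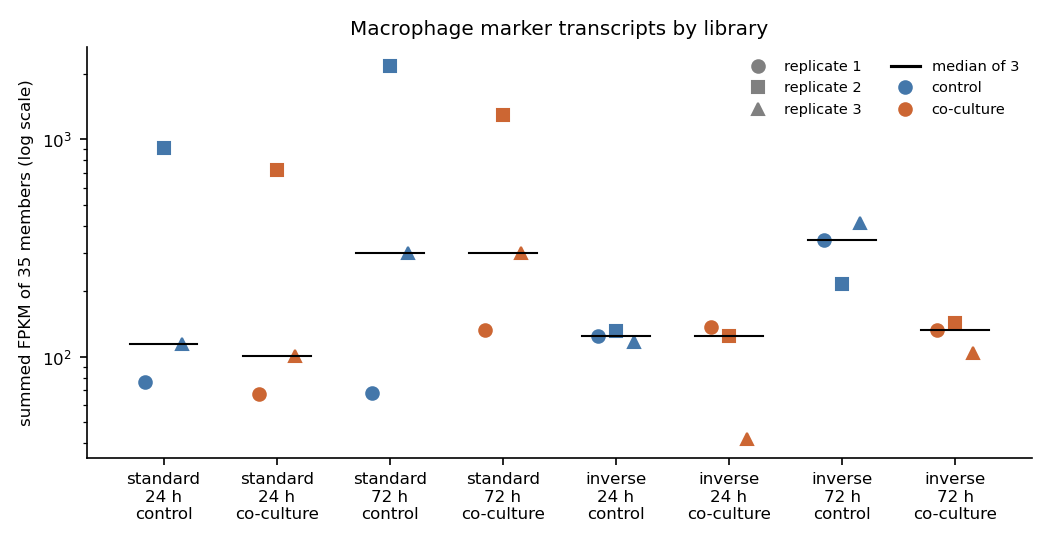
Summed FPKM of the 35 members in each of the 24 libraries on a log axis, with replicates as circle, square and triangle and the median of each group as a bar. Replicate 2 of each standard group sits between 723 and 2180, and the inverse 72 h controls (215 to 413) lie above inverse 72 h co-culture (104 to 143).

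In the inverse model the macrophage signal was higher in controls at 72 h than in any other inverse group. The members summed to 124, 132 and 117 FPKM in 24 h controls (replicates 1, 2 and 3), to 137, 124 and 41.9 in 24 h co-culture, to 344, 215 and 413 in 72 h controls and to 133, 143 and 104 in 72 h co-culture. The 3 controls at 72 h lay above the other 9 libraries, of which 8 were at 104 to 143 and replicate 3 of 24 h co-culture at 41.9. The mean sum was 324 ± 101 FPKM (SD, n = 3) in 72 h controls, 124 ± 7.34 in 24 h controls and 127 ± 20.1 in 72 h co-culture. In geometric means the 72 h controls were 2.51-fold the 24 h controls and 2.49-fold the 72 h co-culture. Both contrasts use the same 72 h control libraries and are not independent of each other. In bulk RNA, fewer macrophages and less of each RNA per macrophage cannot be told apart.

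Of 23 members tested between inverse 72 h co-culture and control (limma, log2(FPKM + 0.5), Benjamini-Hochberg adjustment over 13066 genes), 13 were called lower and 1 higher in co-culture. Among all genes tested, 9.57% were called lower and 3.27% higher. The median log2 difference was -1.39 over the members tested and -0.16 over all genes tested. Co-culture and control libraries did not overlap for 17 members that were lower (28.8% of all genes) and 1 that was higher (9.53%). With voom weights on recovered fragment counts, 14 members were called, as were 2071 of 13057 genes. Adgre1 and Cd84 passed the expression filter through the control libraries alone, so a difference was built into their entry. Without these 2, 12 of 21 were called lower.

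**Figure D2:**
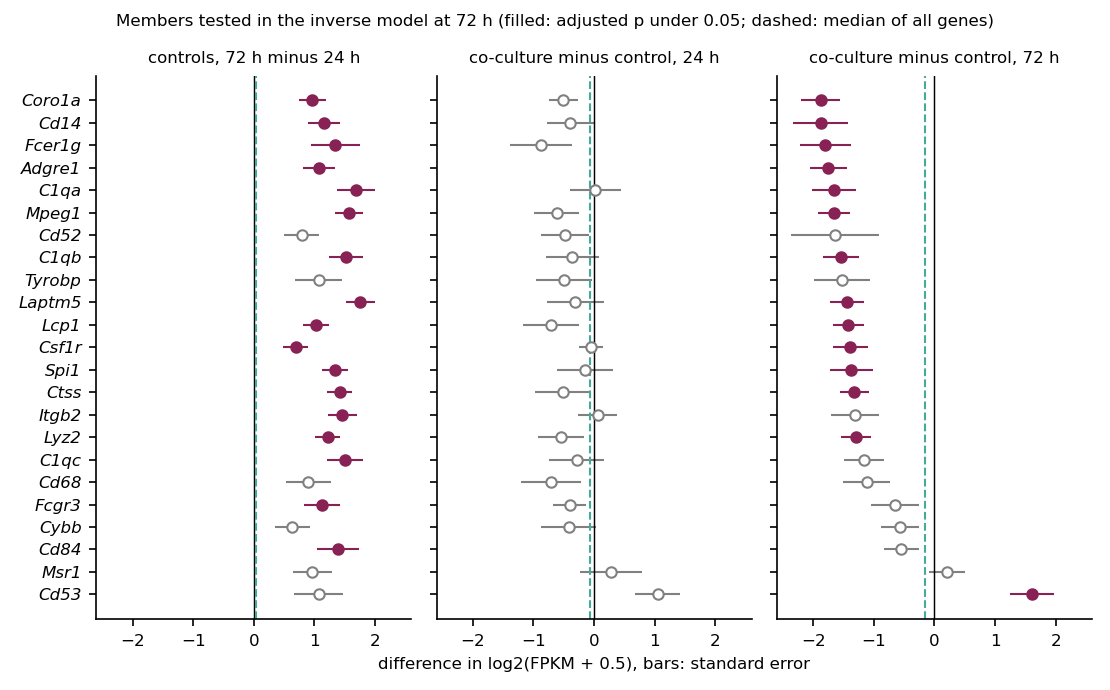
Differences in log2(FPKM + 0.5) with standard errors for the 23 members tested in the inverse model at 72 h, for controls over time (left), co-culture at 24 h (middle, members passing the filter only) and co-culture at 72 h (right). Filled points have an adjusted p under 0.05 and the dashed line is the median of all genes, and the points on the right lie below 0 except those of Msr1 (0.21) and Cd53 (1.61).

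Both regulators of the lineage were lower in 72 h co-culture than in 72 h controls. Csf1r was at 5.13, 5.44 and 7.86 FPKM in 72 h controls and at 2.29, 2.72 and 1.24 in 72 h co-culture, without overlap. Its log2 difference was -1.39 ± 0.29 (SE, limma adjusted p = 0.0222). For Spi1, with 6.21, 3.67 and 4.52 FPKM in controls and 2.17, 0.703 and 2.03 in co-culture, the difference was -1.37 ± 0.35 (limma adjusted p = 0.0435). Csf1, the ligand of the receptor, was plentiful in all libraries at a mean of 1243 FPKM.

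Secreted and lysosomal products of macrophages were lower in 72 h co-culture than in control too. Lyz2 was at 152, 93.6 and 172 FPKM in controls and 59.8, 64.6 and 41.5 in co-culture, and its log2 difference was -1.30 ± 0.25 (limma adjusted p = 0.0185). Every control library lay above every co-culture library. C1qb, a chain of the C1q recognition complex, was at 19.2, 9.83 and 24.3 FPKM in controls and 5.56, 5.01 and 5.66 in co-culture (-1.54 ± 0.30, limma adjusted p = 0.0186). C1qa was at 14, 7.38 and 20.4 FPKM in controls and 4.61, 4.2 and 2.62 in co-culture (-1.66 ± 0.36, limma adjusted p = 0.0255). The C1qc groups did not overlap either (16.1, 6.83 and 16.7 against 6, 5.51 and 4.19), but with a difference of -1.17 ± 0.33 its limma adjusted p was 0.0553. Also called in this class were the pore-forming Mpeg1 (-1.66, limma adjusted p = 0.00956), the cathepsin gene Ctss (-1.32, 0.0163) and Laptm5 (-1.44, 0.0186), whereas Cybb, the catalytic subunit of the phagocyte oxidase, had a difference of -0.57 (0.239).

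Both cytoskeletal genes of leukocytes that were tested were lower in 72 h co-culture than in control. Coro1a was at 12.4, 7.12 and 12 FPKM in controls and at 2.98, 3.23 and 1.38 in co-culture, a log2 difference of -1.88 ± 0.32 (limma adjusted p = 0.0126). Lcp1 (13.5, 12.1 and 22 against 4.07, 5.69 and 6.74 FPKM) differed by -1.42 ± 0.26 (limma adjusted p = 0.0158). Neither gene's groups overlapped. Ptprc, which encodes the pan-leukocyte phosphatase CD45, and Aif1 were under the expression filter, with 0.802 to 3.13 against 0.387 to 0.573 FPKM and 0.18 to 1.34 against 0 FPKM.

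Surface receptors were less uniform. Cd14, the lipopolysaccharide co-receptor, was at 8.25, 4.63 and 6.66 FPKM in controls and 1.4, 2.96 and 0.477 in co-culture (-1.88 ± 0.45, limma adjusted p = 0.0346). Adgre1, which encodes F4/80, was at 2.61, 1.98 and 3.55 FPKM in controls and 0.314, 0.559 and 0.454 in co-culture. Its difference of -1.75 is a description, because it entered through the controls alone. The endosomal marker Cd68 had a difference of -1.12 (limma adjusted p = 0.0976), Cd52 of -1.64 (0.169) and Cd84 of -0.55 (0.24), and none of them was called. Cd53, a tetraspanin of leukocytes, went the other way. It was at 2.36, 1.08 and 2.93 FPKM in controls and at 5.91, 5.27 and 11.4 in co-culture, a rise of 1.61 ± 0.37 on the log2 scale (limma adjusted p = 0.0323). The class A scavenger receptor gene Msr1 differed by 0.21 ± 0.30 (limma adjusted p = 0.659), with overlapping groups (1.54, 1.66 and 2.69 against 2.12, 1.71 and 3.29 FPKM).

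Of the Fc receptor genes and their adaptors, Fcer1g was called (8.92, 7.95 and 15.2 FPKM in controls, 3.84, 3.71 and 1.12 in co-culture, -1.80 ± 0.42, limma adjusted p = 0.0316). Tyrobp, the adaptor of TREM2 and related receptors, differed by -1.53 (limma adjusted p = 0.0632) and Fcgr3 by -0.65 (0.299). Among the integrins, which bind matrix and complement fragments, Itgb2 had a difference of -1.31 (limma adjusted p = 0.063), and Itgam and Itgax did not pass the filter. The 12 members under the filter were Mrc1, Cd163, Trem2, Cx3cr1, Cd86, Ms4a7, Fcgr1, Fcgr2b, Itgam, Itgax, Ptprc and Aif1. Their means were 0 to 0.742 FPKM in co-culture and 0.13 to 1.82 in controls.

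How many members were called in this comparison depended on single libraries and on the model. Without replicate 3 of the 72 h controls no member was called by limma (368 of 12698 genes). Without replicate 1 of the co-culture 2 were (Mpeg1 and Coro1a, 503 of 12858 genes), and without replicate 1 of the controls 2 were (Mpeg1 and Lcp1, 514 of 12679 genes). Leaving out any of the remaining libraries gave 11 to 14 members (914 to 1637 genes). With no library left out, 1678 of 13066 genes were called. One model over all 24 libraries, whose spread takes in the standard libraries that stood apart, called 0 of 32 members and 897 of 14452 genes. In each setting run, the 13 members called lower kept a negative difference wherever they were tested. Krt19, a keratin of epithelial cells, rose in the same comparison by 2.03 ± 0.40 on the log2 scale (limma adjusted p = 0.0189). It passed the expression filter through the co-culture libraries alone (1.83, 1.17 and 3.11 FPKM against 0.176, 0.116 and 0 in controls). A difference was thus built into its entry, and the rise is a description. The part of RNA from KPC cells in the members' values was not tested. Of 13 stellate cell genes tested there, the small proteoglycan gene Lum fell (-1.59, limma adjusted p = 0.00774) and the receptor gene Pdgfra rose (0.38, 0.0416). The acinar gene Cela1 fell (-0.56, limma adjusted p = 0.0243). The part of these shifts in the members' lower levels was not tested.

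**Figure D3:**
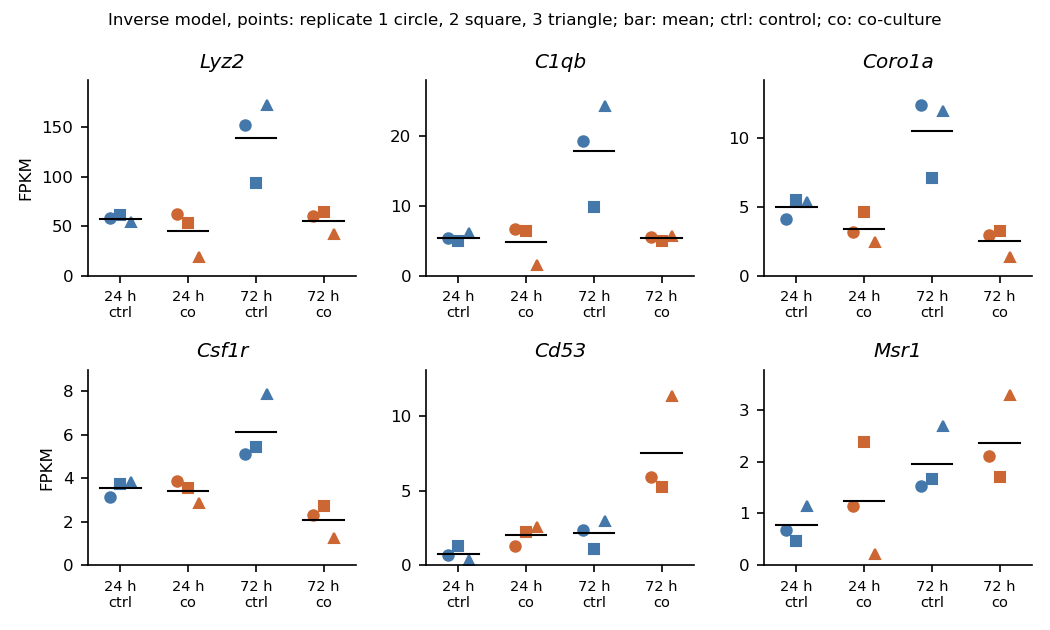
FPKM of 6 members in the 12 inverse libraries (replicates as circle, square and triangle, mean as bar, axes from 0). Lyz2, C1qb, Coro1a and Csf1r are highest in the 72 h controls, while Cd53 is highest in 72 h co-culture (5.27 to 11.4 FPKM) and Msr1 overlaps between the 72 h groups.

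At 24 h the same contrast gave 0 of 21 members tested called by limma or by voom (2.47% of all genes by limma, 520 of 12819 by voom), and 1 at an unadjusted p under 0.05 (14.8% of all genes). That member was Cd53, at 0.685, 1.25 and 0.305 FPKM in controls and at 1.27, 2.2 and 2.57 in co-culture, higher in every co-culture library than in every control library (log2 difference 1.05 ± 0.37, limma adjusted p = 0.22). The median difference was -0.40 over the members tested and -0.06 over all genes. For Lyz2 the values were 58.1, 61 and 53.8 FPKM in controls and 62.3, 53.4 and 18.4 in co-culture. The low sums of that group rest on replicate 3 alone, in which 905 fragments fell on the members. The change of the co-culture effect from 24 h to 72 h was tested as well, in a comparison added after the data were seen. None of 23 members tested was called by limma (0% of all genes) or by voom (13 of 13712 genes). By limma 6 had an unadjusted p under 0.05, all of them lower at 72 h (10.7% of all genes): Csf1r, Coro1a, C1qa, Itgb2, Cd14 and Mpeg1. The smallest limma adjusted p was 0.217, for Csf1r at -1.34 ± 0.35, so a difference between the effects at the 2 times was not established. Of the 13 stellate cell genes tested at 24 h, Acta2 fell (-1.01) and Col3a1 (0.59) and Pdgfra (0.53) rose.

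Over time in inverse controls, most of the members tested rose. Of 23 tested, 17 were called higher at 72 h than at 24 h by limma (10.2% of all genes) and 0 lower (9.05%), and the other 6 had positive differences. The 72 h libraries lay above all 24 h libraries for 20 members (22.8% of all genes) and below them for 0 (16.9%). The median log2 difference was 1.16 over the members tested and 0.04 over all genes tested, and voom called 18 members and 3067 of 13083 genes.

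Laptm5 had the widest difference, from 6.81, 5.66 and 5.25 FPKM at 24 h to 21.3, 14.6 and 30.1 at 72 h (1.76 ± 0.24, limma adjusted p = 0.00282). C1qa differed by 1.69 (limma adjusted p = 0.00901), Mpeg1 by 1.57 (0.00372), C1qb by 1.53 (0.00809) and C1qc by 1.51 (0.0108). Lyz2 rose by 1.22 ± 0.20 on the log2 scale (limma adjusted p = 0.00502), from 58.1, 61 and 53.8 to 152, 93.6 and 172 FPKM. Its groups did not overlap. Itgb2 (1.46), Ctss (1.42), Cd84 (1.39), Fcer1g (1.35), Spi1 (1.34), Cd14 (1.16), Fcgr3 (1.13), Adgre1 (1.08), Lcp1 (1.03), Coro1a (0.97) and Csf1r (0.69) were called too. Cd68 (0.90, limma adjusted p = 0.12), Msr1 (0.97, 0.0646), Cd53 (1.07, 0.0936), Tyrobp (1.07, 0.0862), Cd52 (0.79, 0.0865) and Cybb (0.64, 0.156) were not. Leaving out 1 library at a time gave 10 to 19 members called (1243 to 2369 genes), and the single model over all 24 libraries called 0 (225 of 14452 genes). Cd84 passed the filter through the 72 h libraries alone, and without it 16 of 22 were called. In inverse co-culture over the same time, limma called 0 of 21 members (0.00784% of all genes, voom 0), and 2 had an unadjusted p under 0.05 (15.3%). The median there was 0.43, with 17 positive and 4 negative differences.

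In the standard model the widest differences lay between libraries of the same group. All 35 members were highest in replicate 2 in each of the 4 standard groups. Relative to the geometric mean of replicates 1 and 3, their sum in replicate 2 was 9.78-fold in 24 h controls, 8.78-fold in 24 h co-culture, 15.2-fold in 72 h controls and 6.49-fold in 72 h co-culture. Of the 32 members above the filter, 27, 26, 30 and 23 exceeded 4-fold in these groups, as did 2.23, 1.13, 2.15 and 0.782% of 14452 genes. In the inverse model replicate 2 exceeded 4-fold for at most 1 member in any group. Lyz2 shows the span: 31.7, 369 and 52 FPKM in standard 24 h controls, 26.3, 266 and 43.4 in 24 h co-culture, 29.8, 915 and 126 in 72 h controls and 63.4, 542 and 133 in 72 h co-culture. The members made up 0.346% of all FPKM in replicate 2 of the 72 h controls and 0.0106 to 0.0489% in replicates 1 and 3 of the standard groups.

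**Figure D4:**
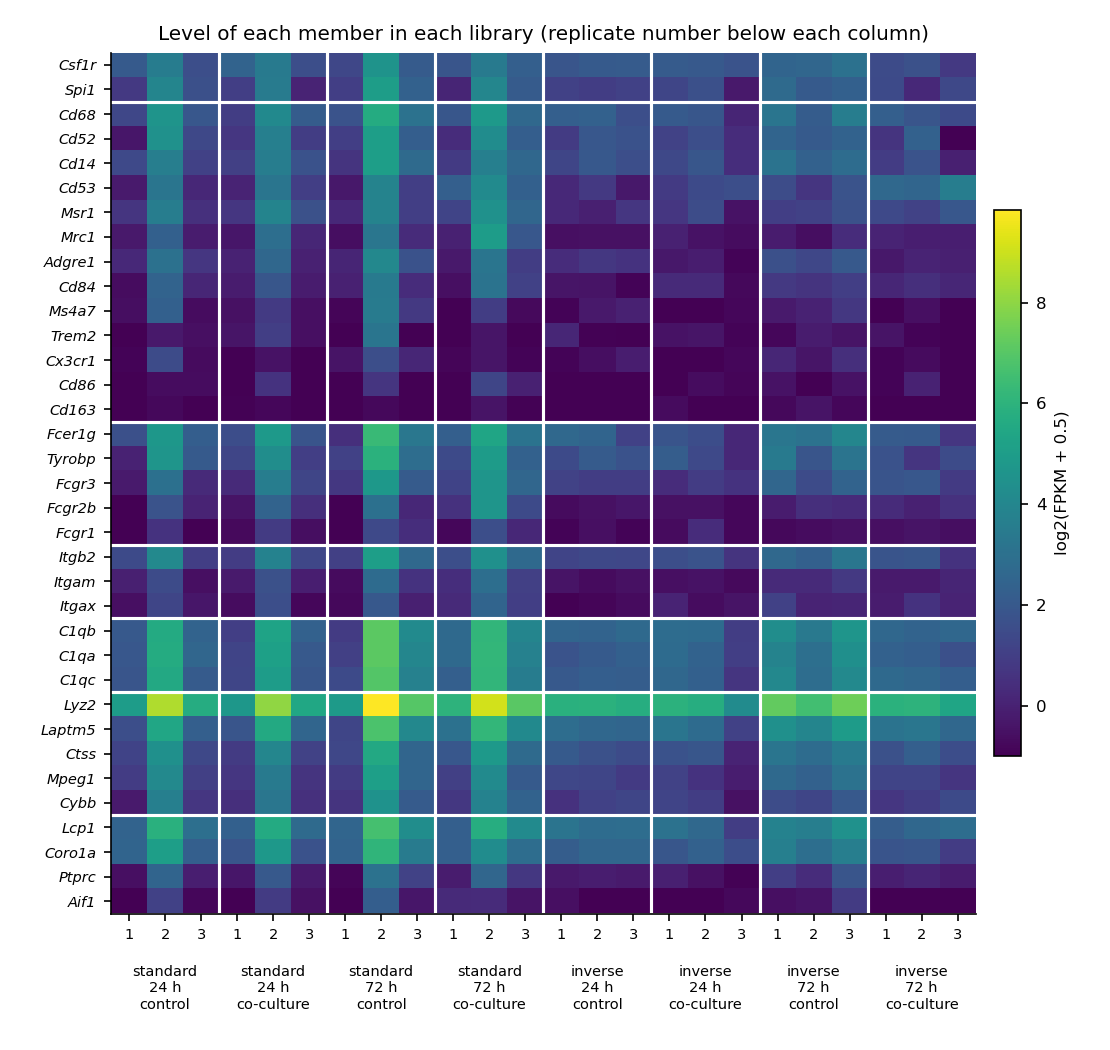
Level of the 35 members (rows, grouped by role and ordered by mean) in the 24 libraries (columns, in groups of 3) as log2(FPKM + 0.5). Within each standard group of 3 columns, replicate 2 is the brightest for all 35 members, and Lyz2 is the brightest row.

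With that spread, no member was called by limma in any comparison that involved the standard model. Standard co-culture against control gave 0 of 22 members at 24 h (0% of all genes, 0 at an unadjusted p under 0.05 against 2.89% of all genes, voom 0), with a median of -0.18, or -0.22 without replicate 2. At 72 h it gave 0 of 29 (0% of all genes, 0 unadjusted against 6.22%, voom 0), with a median of -0.03, or 0.31 without replicate 2. Over time, 0 of 24 were called in controls (0% of all genes, 0 unadjusted against 0.98%, voom 0) with a median of 0.77, or 0.62 without replicate 2. In co-culture 0 of 28 were called over time (0% of all genes, 0 unadjusted against 3.65%, voom 0) with a median of 0.88, or 1.03 without replicate 2, where 8 of 19 tested had an unadjusted p under 0.05 (2.44% of the 12299 genes of that fit).

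Because the replicate numbers pair the standard libraries, the same comparisons were also read within pairs. With the replicate block limma again called 0 members at an adjusted p under 0.05 in each of the 4 comparisons. Among all genes, the block called 157 of 12859 for co-culture at 24 h and 1 of 12863 at 72 h. It called 0 genes in either comparison over time. At an unadjusted p under 0.05, the block gave 6 of 22 members for co-culture at 24 h (15% of all genes), 9 of 29 for co-culture at 72 h (10.8%), 12 of 24 for controls over time (8.91%) and 19 of 28 for co-culture over time (12.5%). For co-culture against control, the sum of the 35 members was 0.881-fold, 0.789-fold and 0.876-fold at 24 h in replicates 1, 2 and 3, lower in each pair, and 1.95-fold, 0.595-fold and 1-fold at 72 h. In co-culture over time, all 28 members tested had positive differences and 20 were higher at 72 h in all 3 pairs (11.1% of all genes), and the sum of the 35 members was 1.98-fold, 1.79-fold and 2.98-fold in replicates 1, 2 and 3. In controls 8 of 24 were higher in all 3 pairs (15.7% of all genes), with ratios of the sum of 0.897, 2.38 and 2.6.

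Between the models the picture turned on the same libraries. Inverse against standard controls gave 0 of 21 members at 24 h (0% of all genes, 0 unadjusted against 1.74%, voom 0) and 0 of 25 at 72 h (0% of all genes, 0 unadjusted against 6.18%, voom 0). The medians were -0.77 and -0.32 with all libraries, and 0.30 and 0.92 without replicate 2 of the standard model. The co-culture effect itself, inverse minus standard, gave 0 of 32 members at 24 h (0% of all genes, 0 unadjusted against 1.26%, voom 0) with a median of -0.18, or -0.31 without replicate 2 of the standard model. At 72 h it gave 0 of 32 (0% of all genes, 0 unadjusted against 3.47%, voom 0) with a median of -1.12, or -1.33 without replicate 2. With the replicate block, limma gave 15 of 32 members an unadjusted p under 0.05 at 72 h and 1 of 32 at 24 h. The block called 0 members at either time, and 16 of 14452 genes at 72 h. That fit also pairs the inverse libraries, for which the data show no pairing. At an adjusted p under 0.05, the 72 h difference of macrophage transcripts between inverse co-culture and control was thus not shown to differ from the standard model.

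The members were chosen for keeping together, and how closely they did so varied. After centring on group means, the 496 pairs among the 32 members above the filter had a median r of 0.96 over the 12 standard libraries and 0.45 over the 12 inverse libraries (range -0.70 to 0.98), where 45.8% of pairs exceeded an r of 0.5. All pairs share the same libraries, and 4 of the 12 standard libraries are the replicate 2 libraries that stood apart. Without them the median r was 0.82 over the remaining 8 standard libraries (-0.55 to 1.00). Whether the models differ in this was not tested. Against the mean of the other members in the inverse libraries, Lyz2 (0.97), C1qa and C1qc (each 0.95), Laptm5 (0.94), Cd68 (0.93) and C1qb (0.91) lay closest. Cd53 (-0.05), Fcgr2b (-0.04), Ms4a7 (0.16) and Itgax (0.18) lay farthest. Outside the list, the 10 of 14420 genes most like the members over all 24 libraries were C5ar1 (0.989), Adam8, Stab1, Clec4d, Nckap1l, Cyth4, Atp8b4, Cd300ld, Lilrb4a and Pirb (0.971). Over the 12 inverse libraries alone their r was 0.58 to 0.90.

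In the libraries rich in the signal, every member was above 0, and the levels of some receptor genes differed widely between co-culture and control. These are pairs of 1 library against 1 in standard replicate 2, chosen after their values were seen, and they have no replicate check. At 72 h the mannose receptor gene Mrc1 was at 9.13 FPKM in the control and 31.5 in co-culture, the inhibitory Fc receptor gene Fcgr2b at 7.41 and 24.5, and Msr1 at 13.7 and 22.1. Trem2 went the other way, from 8.66 to 0.26, as did Ms4a7 from 10.8 to 1.46, Cx3cr1 from 2.55 to 0.255 and Coro1a from 67.9 to 18.6 FPKM. In all, 9 members were higher and 26 lower in co-culture, with a median log2 difference of -0.80. At 24 h 11 were higher and 24 lower (median -0.29). Mrc1 (4.51 to 7.03), Fcgr2b (2.96 to 4.98) and Msr1 (11.4 to 14.2) were again higher and Ms4a7 (4.54 to 1.27) and Cx3cr1 (2.26 to 0.214) lower, while Trem2 had the opposite direction (0.336 to 1.49).

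**Figure D5:**
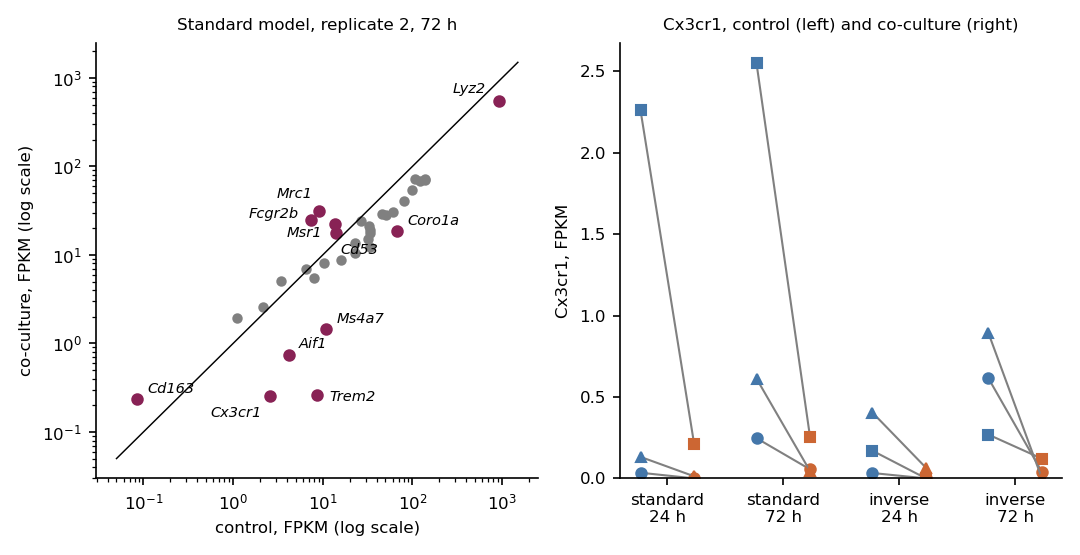
Left, FPKM of the 35 members in standard 72 h replicate 2, co-culture against control on log axes, with the line of equality; Mrc1 and Fcgr2b lie above it and Trem2, Cx3cr1 and Ms4a7 far below. Right, Cx3cr1 in the 12 same-numbered pairs of control (blue) and co-culture (orange) libraries, with every line sloping down.

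Some of these directions held in libraries poor in the signal as well. Control and co-culture libraries were set side by side by replicate number, a pairing that the data bear out in the standard model and not in the inverse model. Adgre1, Cx3cr1, Coro1a and Lcp1 were lower in co-culture in all 12 pairs, that is 4 of 35 members, as were 1.89% of 28821 genes with any signal. Among genes above 1 FPKM in at least 3 libraries they were 3 of 32 members and 3.68% of 14434 genes. Both gene totals are slightly smaller than the 28892 and 14452 of the other steps, for a reason that was not checked. No member was higher in all 12 (1.14% of the genes with any signal). Msr1 and Cd53 were higher in 11, a count for which the share of all genes was not taken. This count was made after the values were seen and is a description.

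Cx3cr1 (chr9:119901616-120069879, reverse strand, GRCm38.p6) was the clearest of them in relative terms. It was at 0.0347, 2.26 and 0.132 FPKM in standard 24 h controls and at 0, 0.214 and 0.0129 in co-culture, and at 0.247, 2.55 and 0.613 in standard 72 h controls and 0.0555, 0.255 and 0.0449 in co-culture. In the inverse model the controls had 0.033, 0.17 and 0.404 FPKM at 24 h and 0.615, 0.269 and 0.893 at 72 h, and co-culture 0, 0 and 0.0653 at 24 h and 0.0395, 0.121 and 0 at 72 h. Over all libraries that is 60 fragments in 12 co-culture libraries and 603 in 12 control libraries, or 23 and 274 in the 10 libraries each that remain without standard replicate 2. Being under 1 FPKM in nearly all libraries, Cx3cr1 did not enter the main tests. Without the filter its log2 differences were -0.78, -1.16, -0.40 and -0.94 (standard 24 h and 72 h, inverse 24 h and 72 h), with limma adjusted p of 1, 0.889, 0.575 and 0.0936, so it was called in none of them. Cx3cl1, which encodes its ligand fractalkine, rose in inverse co-culture at 24 h by 0.66 ± 0.12 on the log2 scale (limma adjusted p = 0.0319).

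Other members with few fragments can be read the same way, as sums over 12 libraries each. Ms4a7, a tetraspan membrane protein gene of macrophages, had 112 fragments in co-culture and 588 in control libraries. Trem2 had 121 and 359, of which 296 lay in replicate 2 of the standard 72 h controls, and 47 and 52 without standard replicate 2. Mrc1 had 3277 and 1195, Fcgr2b 1125 and 423, Msr1 2034 and 1232, and Cd53 2222 and 1146. Without standard replicate 2 the other sums were 22 and 149 for Ms4a7, 485 and 277 for Mrc1, 210 and 123 for Fcgr2b, 740 and 446 for Msr1, and 1296 and 428 for Cd53. For Mrc1 the 72 h pair of standard replicate 2 supplies 2181 and 623 of these fragments, whereas Cd53 was also higher in 6 of 6 inverse pairs. At standard 72 h, Cd53 was at 0.308, 14 and 1.49 FPKM in controls and at 4.3, 17.6 and 4.44 in co-culture, higher in each pair (log2 difference 1.40), but the smallest limma adjusted p of any member in that comparison was 0.85.

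Further genes of the same lineage were followed in the inverse model, from a list of 43 myeloid genes beyond the members. Of 21 tested in 72 h co-culture against control, 6 were called lower and 1 higher (9.57% and 3.27% of all genes). Among the lower were Fyb (-2.06), Lilrb4a (-1.74), Cd300lb (-1.34), Cyth4 (-1.34) and Ncf1 (-1.17). The chemokine gene Ccl6 was higher by 3.63 ± 0.29 on the log2 scale (limma adjusted p = 0.00269). In inverse controls over time, 10 of 18 tested rose and 0 fell (10.2% and 9.05% of all genes). Of 15 stellate cell genes in that comparison, 13 were tested, of which Acta2 (-1.43), Des (-0.83), Vim (-0.57) and Thy1 (-0.56) fell and Col3a1 (0.52) and Pdgfra (0.47) rose. Of 14 genes for ligands and opsonins that act on macrophages, 11 were tested there, of which Apoe (1.75), C3 (1.63) and Cx3cl1 (0.80) rose and Mif (-0.79) and Csf1 (-0.39) fell. The part of these shifts in the members' rise was not tested. Of the 11 ligand genes tested at 24 h (2.47% of all genes called in either direction), the chemokines Ccl2 (1.59) and Ccl7 (0.99), Cx3cl1 and complement C3 (0.75) rose in inverse co-culture. Of the 10 tested at 72 h, Ccl7 (1.02) and Mif (0.90) were higher in inverse co-culture than in control. Apoe (-2.03) and Gas6 (-1.58), a bridging ligand for apoptotic cells, were lower. Apoe, a lipoprotein gene of macrophages and of several other cell types, was at 1521, 883 and 1235 FPKM in inverse 72 h controls and at 358, 498 and 136 in co-culture, without overlap.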

How the data were processed

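PSC libraries were sequenced from polyadenylated RNA, 3 per group. Per the labels and the study's methods, the authors aligned reads with HISAT2 2.0.5 to GRCm38 (mm10), counted them with featureCounts 1.5.0-p3 and tested counts with DESeq2 1.20.0. The deposited values are FPKM, made by the authors from these counts. The study's methods give the featureCounts parameters as default. How reads in antisense overlaps were assigned was not checked, so those values are uncertain. The members and lists were chosen with earlier results of these data known.

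Gene lengths from GENCODE M21 turned FPKM into whole fragments (within 0.02) in all libraries for 94.4% of 28892 genes, and for 31 of the 35 members, not for Adgre1, Csf1r, Cd14 and Mpeg1. Testing used limma 3.58.1 (R 4.3.3) with an intensity trend on log2(FPKM + 0.5), for genes above 1 FPKM in at least 3 libraries of a fit, two-sided, called at a Benjamini-Hochberg adjusted p under 0.05 over all genes tested. Fold changes on this scale understate low genes. Each comparison of groups was fitted on its 6 libraries, and the differences between models on all 24. The difference between the inverse effects at the 2 times, comparisons without standard replicate 2 and the counts over pairs were added after the data were seen. The steps were tested on simulated data.

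All 35 members are named, and from the other lists the genes called or the highest and lowest, except 1 called gene that is not reported here. The 10 most similar genes have the highest Pearson correlation with the members' mean after centring on groups. Same-numbered libraries deviated together in the standard model (r of 0.381 to 0.823) and not in the inverse model (-0.171 to 0.214), so replicate numbers were read as pairs in the standard model. Alternatives were pseudocounts of 1 and 0.1, no filter, a mean above 5 FPKM, median-ratio scaling, no trend, the replicate block, voom, 1 model of 24 libraries and leaving out each library. With 3 libraries a side an exact permutation test cannot go below p = 0.1.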

Additional observations from a re-analysis of the deposited data

Results flagged for a closer look

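For 3 members the co-culture effect had opposite signs in every same-numbered pair of a contrast and its counterpart. Fcgr3 at 24 h was lower in all 3 inverse pairs (mean log2 difference -0.40) and higher in all 3 standard pairs (0.67), a difference of -1.08. Itgam at 72 h was lower in all 3 inverse pairs (-0.57) and higher in all 3 standard pairs (0.55), a difference of -1.12. Cd84 in the inverse model was lower in co-culture in all 3 pairs at 72 h (-0.55) and higher in all 3 at 24 h (0.52), a difference of -1.06 (limma adjusted p = 0.473). The interaction tests of limma over all genes called none of the 3, and the replicate numbers of the inverse model carry no shown pairing. Itgam at inverse 72 h (means 0.44 FPKM in co-culture and 0.904 in control) was under the expression filter. So was Cd84 at inverse 24 h (0.509 and 0.18). The share of all genes with such a reversal was not counted, so the 3 are a description.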

How the results depend on the processing

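Members called between inverse 72 h co-culture and control numbered 5 without the expression filter (888 of 24201 genes), 8 with a mean above 5 FPKM (1530 of 9565) and 8 with the replicate block (902 of 13066). They numbered 0 with 1 model of 24 libraries (897 of 14452) and 0 to 14 when 1 library was left out (368 to 1637 genes). In inverse controls over time they numbered 10 without the filter (1425 of 24590 genes), 9 with a mean above 5 FPKM (2312 of 9646), 0 with 1 model of 24 libraries (225 of 14452) and 10 to 19 when 1 library was left out (1243 to 2369 genes). With the higher mean 10 and 11 members were tested. The replicate block gave 15 there (1993 of 13092 genes) and changed no other count of members called, also in the standard model, whose numbers pair the libraries. The median log2 difference of the members in standard co-culture at 24 h was -0.08 without the filter and -0.03 with voom, and -1.21 to 0.76 when 1 library was left out. Leaving out 1 library gave -1.05 to 0.96 for standard co-culture at 72 h, -0.41 to 1.84 for standard controls over time, -0.01 to 1.79 for standard co-culture over time, -1.09 to 0.61 for the effect in the inverse minus the standard model at 24 h and -2.17 to -0.18 at 72 h. The cause of these shifts was not tested. Members near 0 rest on few fragments (Cd163 on at most 17 in a library), which limits what can be read from them.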

Other observations

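Ccl6, a chemokine gene of myeloid cells outside the 35 members, was higher in co-culture in every same-numbered pair. In inverse 72 h cultures it was at 0.781, 1.28 and 0.331 FPKM in controls and at 14.3, 16.7 and 13.7 in co-culture, and in inverse 24 h cultures at 0.425, 1.27 and 0.466 against 6.03, 1.72 and 3.43. In the standard model it was at 0.695, 6.3 and 1.13 FPKM in 24 h controls against 3.54, 32.3 and 2.76 in co-culture, and at 0.859, 16.2 and 2.09 in 72 h controls against 13.9, 192 and 24.1 in co-culture. Like the members, it was highest in replicate 2 of each standard group. It was singled out after its values were seen.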
